A study of Mus musculus with 6 samples.

Results

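The histone deacetylase genes Hdac1 to Hdac10 were followed in the RNA of mouse oocytes, with and without aminophylline. They were found by symbol in the deposited gene table, and all 10 were listed among its 25631 genes. The series holds 6 oocyte libraries from naturally aged female ICR mice of 14 months, an outbred strain. The control group, which the labels call aged and untreated, had 3 libraries from mice on plain water. The aminophylline group had 3 libraries from mice given 4 mM aminophylline in the drinking water for 1 week and plain water for the next 3 weeks. Mice of both groups were injected with equine chorionic gonadotropin, and oocytes were taken by puncture from large antral follicles, per the study's methods. How many mice and oocytes entered a library was not given in the sources used here, so the p-values measure the spread between these libraries, which may in part be technical.

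Histone deacetylases remove acetyl groups from lysines of histones and of other proteins, and Hdac1, Hdac2 and Hdac3 act as the catalytic part of larger corepressor complexes. Class I (Hdac1, Hdac2, Hdac3 and Hdac8) is mainly nuclear. Class IIa (Hdac4, Hdac5, Hdac7 and Hdac9) has little catalytic activity of its own and moves between nucleus and cytoplasm when kinases mark it for 14-3-3 proteins. Class IIb holds Hdac6, which deacetylates tubulin in the cytoplasm, and Hdac10, a polyamine deacetylase. In mouse oocytes Hdac1 and Hdac2 are known to be needed for follicle growth and for a stable genome. Aminophylline is theophylline combined with ethylenediamine, and theophylline is known as a phosphodiesterase inhibitor that has also been reported to act on histone deacetylase activity. The values here are RNA levels, and enzyme activity was not measured.

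Hdac2 was the deacetylase with the most RNA in every library, and its start region is shown for that reason. The gene lies on the plus strand of chromosome 10 (36974297 to 37001889, RefSeq, GRCm38.p6). The RefSeq window from 250 bases before to 50 bases after the start site at 36974544 is chr10:36974294-36974593. This start site lies inside the RefSeq gene span above, which begins 247 bases further upstream, so nearly all of the window is inside that span. The sequence is given with capitals for a match to the GC box GGGCGG on the other strand.
Hdac2 promoter: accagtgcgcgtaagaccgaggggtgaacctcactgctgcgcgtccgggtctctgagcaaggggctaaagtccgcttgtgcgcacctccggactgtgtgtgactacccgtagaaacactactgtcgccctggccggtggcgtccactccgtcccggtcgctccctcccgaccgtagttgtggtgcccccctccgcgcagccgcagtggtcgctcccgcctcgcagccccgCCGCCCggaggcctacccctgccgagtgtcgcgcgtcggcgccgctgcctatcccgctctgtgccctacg
The window was 69.7% G and C, and its GC box match began 20 bases before the start site (position -20). The window table held 7 of the 10 members. Of these 7, 5 had GGGCGG on either strand, against 35.7% of all 32851 windows of this length, 4 had CCAAT (37.4% of all windows) and 2 had TATAAA (13.6%). The full cAMP response element TGACGTCA, the letters bound by CREB, was in 0 of the 7 windows and in 1.79% of all windows. These matches describe letters only, and no binding was measured.

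The libraries held 14112341 to 33641283 reads, with the fewest in control library 2. The 13 oocyte markers summed to 18485 to 25456 FPKM (fragments scaled to transcript length and to library size) and none was under 1 FPKM in all libraries. The 9 granulosa cell markers summed to 15.7 to 23.4 FPKM, led by Cyp19a1, the aromatase gene, at 7.37 to 15.7 FPKM, and 6 of the 9 were under 1 FPKM in every library. Macrophage markers summed to 252 FPKM in control library 1 and to 83.7 to 105 FPKM in the other 5 libraries, where C1qb alone gave most of the sum. The stroma and theca sum was 2.90 to 5.24 FPKM, the endothelial sum 5.70 to 9.08 FPKM, the T lymphocyte sum 0.199 to 0.646 FPKM and the erythrocyte sum 0.0486 to 0.585 FPKM. Any part of these cells in the values below was not tested, and fewer cells of a type cannot be told apart from less RNA per cell.

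Each of the 4 class I genes had a higher mean FPKM over the 6 libraries than any gene of the other classes, although the ranges of Hdac8 and Hdac6 overlapped. Hdac2 was at 38.2, 23.8 and 52.3 FPKM in control libraries 1, 2 and 3 and at 27.8, 25.7 and 36.9 FPKM in aminophylline libraries 1, 2 and 3. Control library 3 was the highest and control library 2 the lowest, so the aminophylline values lay inside the control range. Between 912 and 4521 reads stood behind each value. The means were 38.1 ± 14.3 FPKM in controls and 30.1 ± 5.98 FPKM with aminophylline (SD, n = 3 each), and 79.3% of the tested genes had a lower mean over the 6 libraries.

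Hdac1, the closest relative of Hdac2, was at 1.63, 3.67 and 3.72 FPKM in the controls and at 3.25, 3.28 and 3.04 FPKM with aminophylline. Control library 1, the library with the high macrophage sum, lay below the other 5 libraries, which were close together. The aminophylline mean was 3.19 ± 0.133 FPKM against 3.0 ± 1.19 FPKM in controls (SD, n = 3 each). Hdac1, on chromosome 4 (129516104 to 129542646), has a processed pseudogene, Gm10093, which was not analysed here. Of the 1989 windows of 50 bases in its longest coding transcript, 1167 (58.7%) were also present letter for letter in transcripts of other genes, nearly all of them in Gm10093. How reads that match several places were counted is not given in the sources used here, so the Hdac1 values are uncertain. In their longest coding transcripts, Hdac2, Hdac3, Hdac6, Hdac7, Hdac8, Hdac9 and Hdac10 shared 0 such windows with another annotated transcript. Hdac4 and Hdac5 shared 1.08% and 1.29%. For Hdac4, Hdac7, Hdac8 and Hdac9 the deposited FPKM imply lengths of 22164, 15487, 17132 and 25453 bases. The transcripts searched had 8100, 4226, 1936 and 7940 bases. Most of the length behind the values of these genes was therefore not searched.

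Hdac3, the catalytic subunit of the NCoR/SMRT corepressor, was at 3.07, 2.44 and 5.36 FPKM in the controls and at 2.86, 3.87 and 4.52 FPKM with aminophylline. As for Hdac2, control library 3 was the highest and control library 2 the lowest. Hdac8, which deacetylates the cohesin subunit Smc3, was at 1.52, 1.57 and 1.26 FPKM in the controls and at 1.36, 1.44 and 1.15 FPKM with aminophylline. It did not share the order of the libraries seen for Hdac2 and Hdac3, since control library 2 was its highest. Its highest control value was 1.25 times its lowest, and 13.8% of the tested genes had a smaller range over the controls. For Hdac1, Hdac2, Hdac3 and Hdac6, 74.2% to 82.1% of the tested genes had a smaller control range.

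Hdac6 was at 0.880, 0.749 and 1.53 FPKM in the controls and at 0.949, 1.55 and 1.31 FPKM with aminophylline. Control library 3 and aminophylline library 2 were the highest, and the groups overlapped. Hdac6 passed the filter used for testing (at least 1 FPKM in at least 3 libraries) through exactly 3 libraries, 1 control and 2 with aminophylline. Hdac10 was at 0.209, 0.0879 and 0.637 FPKM in the controls and at 0.249, 0.234 and 0.216 FPKM with aminophylline, from 3 to 49 reads. Its control values spanned 7.25-fold while the aminophylline values lay within 1.15-fold of each other.

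The class IIa genes were low throughout. Hdac4 was at 0.219, 0.185 and 0.243 FPKM in the controls and at 0.235, 0.308 and 0.308 FPKM with aminophylline, where libraries 2 and 3 lay above all controls. Hdac9 was at 0.160, 0.0612 and 0.264 FPKM in the controls and at 0.120, 0.0888 and 0.155 FPKM with aminophylline, again with control library 3 highest and control library 2 lowest. Hdac5 had 0, 0 and 1 reads in the controls and 4, 0 and 4 reads with aminophylline. Hdac7 had 2, 0 and 4 reads in the controls and 0, 0 and 10 reads with aminophylline. A library at 0 reads allows a level of up to 3 reads, which is 0.0194 to 0.0462 FPKM for Hdac5 and 0.00576 to 0.0137 FPKM for Hdac7 (counting error only), so no fold change is given for this pair. The exons of Hdac4 overlap those of Gm26720 on the other strand by 3536 bases, and reads of both strands cannot be told apart where counting ignored strand, which the sources used here do not state.

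**Figure D1:**
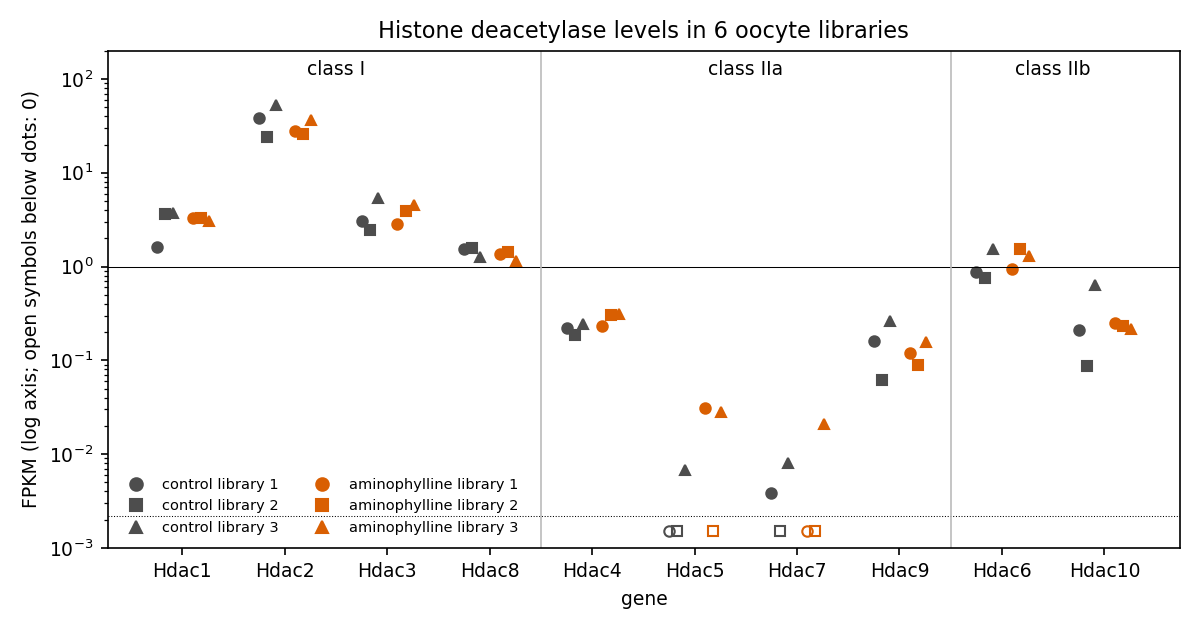
FPKM (log axis) of Hdac1 to Hdac10 in the 3 control libraries (grey) and the 3 aminophylline libraries (orange), with the symbol shape for the library number, the horizontal line at the filter value of 1 FPKM and open symbols for values of 0. Hdac2 stands above the other members in all 6 libraries, and the groups overlap for each of the 10 genes.

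Hdac2 made up 73.1% to 83.2% of the summed FPKM of the 10 members in controls and 70.5% to 77.5% with aminophylline. The ratio of Hdac2 to Hdac1 within a library does not depend on scaling between libraries. It was 23.4, 6.49 and 14.1 in the controls and 8.54, 7.83 and 12.2 with aminophylline, with both the lowest and the highest ratio among the controls. On the log2 scale the ratio was 3.69 ± 0.93 in controls and 3.22 ± 0.34 with aminophylline (SD, n = 3 each), a difference of -0.47 with p = 0.6 in an exact two-sided permutation test, where 3 against 3 libraries cannot give less than 0.1. The uncertainty of the Hdac1 values holds for this ratio too.

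The order of the members by level depended on the gene length behind the FPKM. By the deposited FPKM, means over the 6 libraries placed Hdac2 first (34.1), followed by Hdac3 (3.69), Hdac1 (3.10), Hdac8 (1.38) and Hdac6 (1.16). Hdac10 (0.272), Hdac4 (0.250) and Hdac9 (0.142) came next, and Hdac5 and Hdac7 were last. Neighbours with overlapping ranges over the libraries were Hdac3 and Hdac1, Hdac8 and Hdac6, Hdac10, Hdac4 and Hdac9, and Hdac5 and Hdac7.

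For most members the length that the deposited values imply was close to that of the longest coding transcript in GENCODE M21. It was 1971 against 2038 bases for Hdac1, 2716 against 3250 bases for Hdac2 and 2419 against 2412 bases for Hdac10. For Hdac8, on chromosome X (102284638 to 102505381), the implied length was 17132 bases against 1936 bases for the longest coding transcript, a ratio of 8.85. The same ratio was 3.66 for Hdac7, 3.21 for Hdac9 and 2.74 for Hdac4.

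Reads were also divided by the coding transcript length instead, on the same scale as FPKM. This counts every read as coming from that transcript, so values are too high where reads came from outside it. On this scale Hdac8 moved from the fourth to the second place. Its level became 13.5, 13.9 and 11.1 in the controls and 12.1, 12.7 and 10.2 with aminophylline, with a mean of 12.2 over the 6 libraries. Its lowest value then lay above the highest of Hdac3 (5.29) and its highest below the lowest of Hdac2 (19.9). Without any scaling to length, Hdac8 took 10.6% to 23.8% of all reads on the 10 members, second to Hdac2 with 55.9% to 70.4%. These are the same reads, so this share is no separate measure of its level. Hdac4 and Hdac9 moved above Hdac10 on this scale, at means of 0.683, 0.454 and 0.273. Which transcripts the Hdac8 reads came from was not measured, and differences between groups within a gene do not depend on this length, apart from the effect of the pseudocount.

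**Figure D2:**
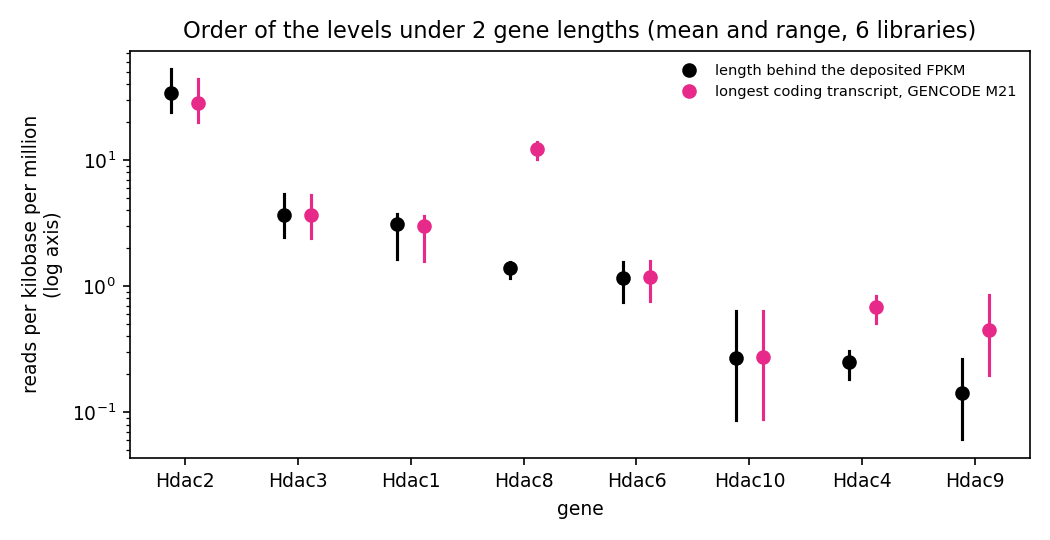
Mean (point) and range (line) over the 6 libraries of the level of 8 deacetylases, in reads scaled to gene length and library size on a log axis, with the length behind the deposited FPKM (black) and with the longest coding transcript of GENCODE M21 (pink). Hdac8 lies at 1.38 by the first length and at 12.2 by the second, and Hdac1, Hdac3, Hdac6 and Hdac10 hardly move.

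Of the 10 members, 5 passed the filter (Hdac1, Hdac2, Hdac3, Hdac6 and Hdac8) and were tested with limma on log2(FPKM + 1) among 10340 genes. Of these 5, 0 had an unadjusted p under 0.05, against 7.25% of all tested genes, and 0 had a Benjamini-Hochberg adjusted p under 0.05, against 0% of all tested genes. The ranges of the groups overlapped for all 5, where 12.5% of the tested genes had no overlap between groups. With the replicate number as a block the count was again 0 of 5, against 14.2% of all tested genes at an unadjusted p under 0.05, and limma voom on the recovered reads also gave 0 of 5.

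The log2 difference (aminophylline minus control, on log2(FPKM + 1)) was largest in size for Hdac2, at -0.28 with a standard error of 0.27. Its 95% interval ran from -0.86 to 0.31, which spans 0.55 to 1.24 times the control level, and its adjusted p from limma was 0.787. For Hdac1 the difference was 0.11 (95% interval -0.46 to 0.68), for Hdac3 0.07 (-0.52 to 0.67), for Hdac6 0.15 (-0.31 to 0.62) and for Hdac8 -0.08 (-0.48 to 0.33). Their adjusted p-values from limma ran from 0.851 to 0.953. The added 1 shrinks differences of genes near 1 FPKM, so these intervals are not bounds on the fold change of low genes. With limma voom on recovered reads they were wider, at -0.52 to 1.04 for Hdac6, -0.58 to 1.01 for Hdac1 and -0.63 to 0.37 for Hdac8. The intervals leave room for changes in both directions, so none of the 5 was shown to differ and none was shown to be the same. The median of the 5 differences was 0.07, beside 0.10 over all tested genes.

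Single libraries moved these values. Control library 2, the shallowest, was the lowest of the 6 for 3 of the 5 tested members and for 6 of all 10 with ties left out, and it was the lowest for 29.0% of all tested genes. Control library 3 was the highest for 3 of the 5 and for 5 of the 10, and for 24.4% of all tested genes. Without control library 2 the Hdac2 difference became -0.57 with an unadjusted limma p of 0.0230 and an adjusted p of 0.235. In that fit 15.6% of all tested genes had an unadjusted p under 0.05. Without control library 3 the Hdac2 difference became -0.02. Without control library 1 the Hdac1 difference changed sign, to -0.16. The Hdac6 difference was 0.05 without control library 2 and 0.26 without aminophylline library 1, and Hdac6 no longer passed the filter without control library 3 or without aminophylline library 2 or 3. The Hdac8 difference was -0.03 without aminophylline library 3 and -0.14 without control library 3. The Hdac3 difference changed sign under quantile normalization (-0.03) and after median centring (-0.01), so it has no stable direction.

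**Figure D3:**
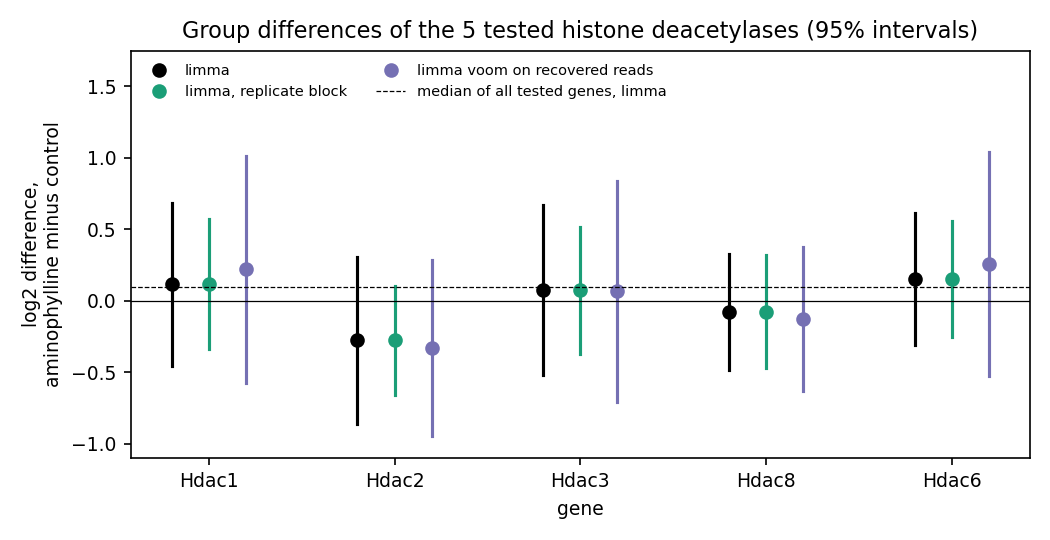
Differences of the 5 tested deacetylases (log2, aminophylline minus control) with 95% intervals, from limma (black), limma with the replicate number as a block (green) and limma voom on recovered reads (purple), with the dashed line at the median of all tested genes (0.10). Every interval crosses 0.

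The untested members were compared on FPKM by exact two-sided permutation tests where reads allowed it, which was so for 3 of the 5. Hdac4 was 1.32 times as high with aminophylline (0.284 ± 0.0422 against 0.216 ± 0.0287 FPKM, SD, n = 3 each) with an exact p of 0.2. Hdac9 (0.121 ± 0.0333 against 0.162 ± 0.102 FPKM, n = 3 each) had an exact p of 0.6. Hdac10 (0.233 ± 0.0164 against 0.311 ± 0.288 FPKM, n = 3 each) had an exact p of 1. The smallest p this design can give is 0.1. Hdac11, the class IV enzyme and the remaining classical deacetylase, had 1, 1 and 18 reads in the controls and 10, 11 and 31 reads with aminophylline, and control library 3 lay inside the aminophylline range.

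Deacetylases act with partner proteins, so 9 lists of partners, substrates, opposing enzymes and readers were counted, which hold 125 genes of the table, 93 of them tested. At an unadjusted p under 0.05, 5 were higher and 5 lower with aminophylline, which is 10.8% of the 93 beside 7.25% of all tested genes, where 456 were higher and 294 lower. The groups did not overlap for 8 higher and 4 lower genes of the 93. Over all 10340 tested genes these counts were 777 and 513, or 12.5% together. None of the 93 had an adjusted p under 0.05 from limma. The count of 10 became 4 without control library 1 (4.35% of the list genes tested beside 3.52% of all genes) and 4 without aminophylline library 3 (4.35% beside 4.12%). It became 6 without aminophylline library 2 (6.45% beside 3.16%) and 27 without control library 3 (29.3% beside 14.2%). Without aminophylline library 1 it was 13 (13.98% beside 6.84%). Without control library 2 it was 11, and there the share of the list genes lay below that of all genes (11.8% beside 15.6%). With the replicate block it was 19 (20.4% beside 14.2% of all genes), with 14 higher and 5 lower, where 1022 of all genes were higher and 445 lower, and again 0 after adjustment.

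Sin3 and NuRD are the corepressor complexes that carry Hdac1 and Hdac2. In the Sin3 list 14 of 16 genes were tested, 2 were higher and 1 lower at an unadjusted p under 0.05, and the median difference was 0.26. In the NuRD list 9 of 13 were tested, 1 was higher and 1 lower, with a median of 0.19. The shares called, 21.4% for Sin3 and 22.2% for NuRD, rest on 3 and 2 genes. Beside these and the lists below, 7.25% of all tested genes were called and their median difference was 0.10. Rbbp7, a histone-binding subunit that both complexes share, was the lower gene in both lists. It was at 1244, 800 and 971 FPKM in the controls and at 692, 571 and 699 FPKM with aminophylline. All aminophylline values lay below all controls, with a log2 difference of -0.60 and a standard error of 0.19. Its unadjusted p from limma was 0.00793 and stayed under 0.05 in 17 of 17 fits. The fits counted here and below reuse the same libraries, and the genes were named by their p. Such counts are therefore no separate support. The limma adjusted p of Rbbp7 was 0.661, or 0.0899 with the replicate block. Of the 50-base windows of its longest coding transcript, 15.1% recur in other transcripts, mostly those of a processed pseudogene, Gm6382.

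Rbbp4, the paralog of Rbbp7 in the same complexes, was added after its values were seen. It was at 2.54, 2.52 and 5.35 FPKM in the controls and at 2.98, 4.30 and 3.63 FPKM with aminophylline, with overlapping groups. Rbbp7 was thus 133 to 489 times as high as Rbbp4 in each library, and 18.6 to 33.6 times as high as Hdac2, by the deposited FPKM. Of the windows of Rbbp4, 33.8% recur in other transcripts, so its values are uncertain too.

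Sap30l, a Sin3 subunit, was at 6.10, 8.74 and 10.05 FPKM in the controls and at 9.51, 14.9 and 16.8 FPKM with aminophylline, a log2 difference of 0.65 with overlapping groups. Brms1, another Sin3 subunit, was named after its values were seen as the list's remaining gene with a p under 0.05, at 29.6, 18.8 and 28.3 FPKM in the controls and 38.3, 29.7 and 43.2 FPKM with aminophylline. Its groups did not overlap by a narrow margin, and its difference was 0.53. Mbd3, which belongs to NuRD, was at 3.17, 3.19 and 5.11 FPKM in the controls and at 5.63, 6.66 and 7.54 FPKM with aminophylline, a difference of 0.67 with no overlap. All 3 had an adjusted p of 0.682 from limma. Without control library 1 or aminophylline library 3 the unadjusted p of Mbd3 was 0.0535 or 0.0651, and that of Sap30l was 0.112 or 0.115. Sap30l passed in 12 of 17 fits and also lost its call without aminophylline library 2, at 0.0966. Brms1 passed in 8 of 17 fits, and nearly all of its 50-base windows (99.6%) are also in a transcript of another annotated gene.

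In the CoREST and MiDAC list, complexes that also carry Hdac1 and Hdac2, 8 of 15 genes were tested and 1 was higher, with a median difference of 0.12. Mier2, which recruits Hdac1, was at 2.69, 2.95 and 5.01 FPKM in the controls and at 5.32, 6.53 and 7.60 FPKM with aminophylline. Its groups did not overlap and its difference was 0.74 (limma adjusted p = 0.676), but without control library 1 or aminophylline library 3 its unadjusted p was 0.0541 or 0.0545. The histone demethylase gene Kdm1a had a difference of 0.35 with overlapping groups. The NCoR/SMRT list, the complex of Hdac3, had 3 of 5 genes tested and 0 called, with a median of 0.05. Tbl1xr1 and Gps2, both subunits, had differences of 0.07 and 0.05.

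The list of class IIa partners held 14-3-3 proteins, kinases and others, with 12 of 21 genes tested, 0 higher and 2 lower, and a median of 0.07. Both lower genes code for 14-3-3 proteins. Ywhaq was at 203, 178 and 203 FPKM in the controls and at 152, 138 and 154 FPKM with aminophylline, a log2 difference of -0.39 with no overlap. Of the 50-base windows of Ywhaq, 37.8% recur in other transcripts, mainly those of the processed pseudogene Gm2423. Ywhae was at 109, 60.9 and 99.3 FPKM in the controls and at 55.8, 55.5 and 65.9 FPKM with aminophylline, a difference of -0.56, and the groups overlapped through control library 2. The limma adjusted p was 0.682 for both. Leaving out 1 library at a time ended the unadjusted call of Ywhaq for each of the 3 aminophylline libraries (highest p 0.0964), and that of Ywhae for control libraries 1 and 3 and aminophylline libraries 1 and 2 (highest p 0.117).

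**Figure D4:**
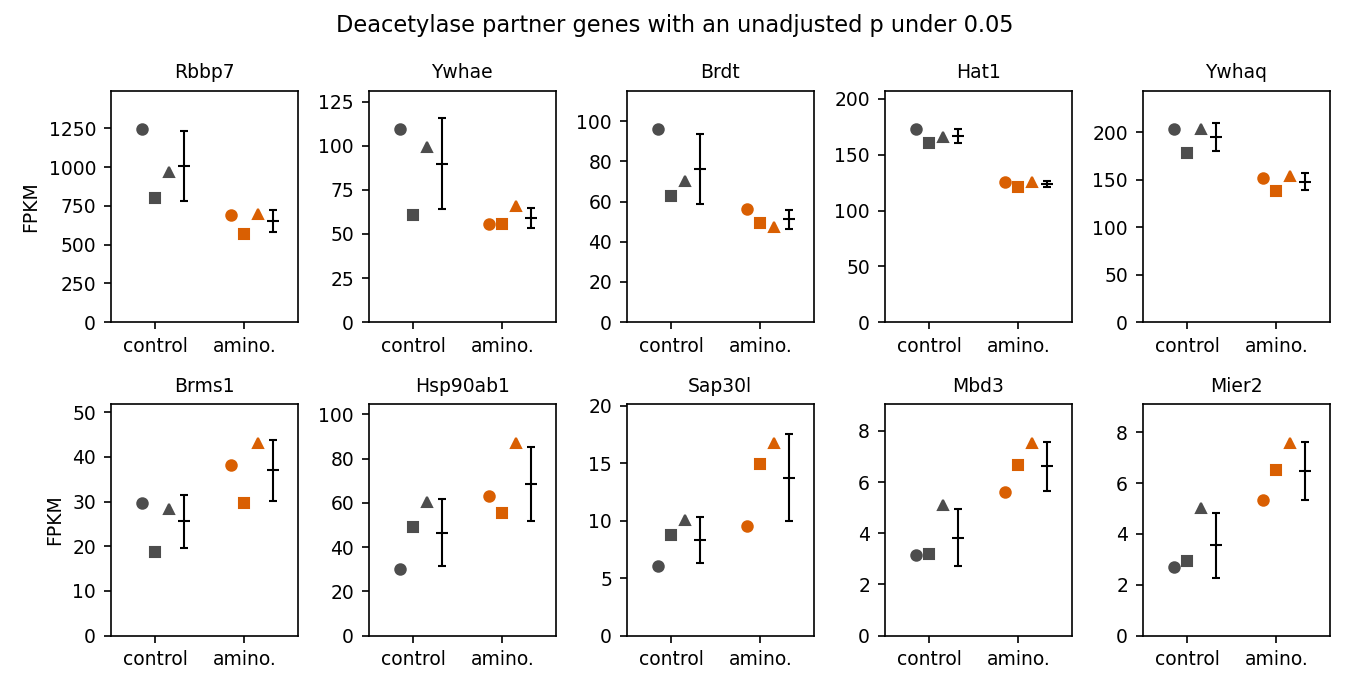
FPKM of the 10 partner genes with an unadjusted p under 0.05, per library, with control in grey and aminophylline in orange, symbol shapes for library numbers and bars for mean ± SD. Rbbp7, Brdt, Hat1 and Ywhaq are lower in every aminophylline library, and Mbd3, Mier2 and Brms1 are higher in every one. The 10 genes were picked by p, and 12.5% of all tested genes had no overlap between groups.

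Among substrates of Hdac6 and Hdac8 and the genes that act on them, 11 of 13 were tested, 1 was higher and 0 lower, with a median of 0.20. Hsp90ab1, one of the Hsp90 chaperones that Hdac6 deacetylates, was at 30.2, 49.2 and 60.3 FPKM in the controls and at 62.9, 55.2 and 87.2 FPKM with aminophylline. Its difference of 0.57 had an unadjusted p of 0.0475 with overlapping groups, and that p passed in 6 of 17 fits (0.218 without control library 1). Hsp90aa1, its paralog, was at 627, 1030 and 864 FPKM in the controls and at 1058, 1068 and 1146 FPKM with aminophylline, a difference of 0.40 and an unadjusted p of 0.0549. Of the windows of Hsp90aa1, 58.5% recur in other transcripts. In the polyamine list, which bears on Hdac10, 11 of 14 genes were tested and 0 were called, with a median of 0.05. Smox, spermine oxidase, had a difference of 0.43 (limma adjusted p = 0.688), Srm, spermidine synthase, one of -0.15 and Oaz1, an ornithine decarboxylase antizyme, one of 0.05. Of the windows of Oaz1, 52.2% recur in a processed pseudogene, Oaz1-ps, so its values are uncertain.

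Acetyltransferases write the mark that deacetylases remove. Of 15 listed, 13 were tested, 0 were higher and 1 lower, with a median difference of 0.18. Hat1, which acetylates newly made histone H4 together with Rbbp7, was at 173, 161 and 166 FPKM in the controls and at 125, 121 and 125 FPKM with aminophylline. The groups lay well apart, with a log2 difference of -0.42, a standard error of 0.14 and an adjusted p of 0.670 from limma. Its unadjusted p of 0.0124 stayed under 0.05 in 16 of 17 fits, the exception being 0.0509 without aminophylline library 2. Kat8, the most abundant acetyltransferase gene of the list, was at 253 to 280 FPKM in the controls and 260 to 305 FPKM with aminophylline, a difference of 0.14. Kat5, of the Tip60 complex, had a difference of 0.43 with overlapping groups.

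Bromodomain proteins read the acetyl mark. Of 15 listed, 14 were tested, 0 were higher and 1 lower, with a median of 0.25. Brdt, a bromodomain gene known mainly from the testis, was at 96.1, 62.9 and 70.4 FPKM in the controls and at 56.5, 49.5 and 47.6 FPKM with aminophylline. All 3 aminophylline libraries lay below all controls, with a difference of -0.55, a standard error of 0.19 and an adjusted p of 0.676 from limma. Without control library 1, which was its highest, the difference was -0.38 and the unadjusted p 0.0534. Brpf3, a scaffold of acetyltransferase complexes, had a difference of 0.36 with overlapping groups.

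**Figure D5:**
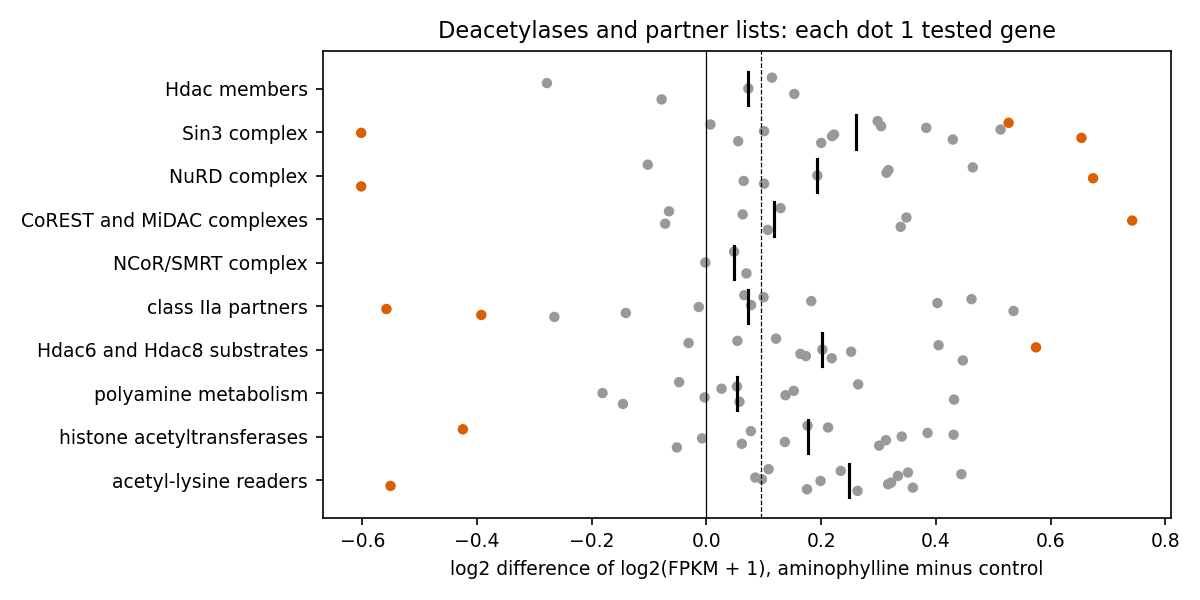
Log2 differences (aminophylline minus control, on log2(FPKM + 1)) of every tested deacetylase and of the tested genes of the 9 partner lists, 1 dot a gene, orange at an unadjusted p under 0.05, with a bar for each list's median and the dashed line at the median of all tested genes (0.10). Rbbp7 stands in both the Sin3 and the NuRD list, and no deacetylase is orange.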

How the data were processed

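RNA-seq was carried out on 6 oocyte libraries, 3 control (labelled aged, untreated) and 3 aminophylline. The authors deposited FPKM values per gene, which scale reads by gene length and by each library's total, and no other scaling was found in them. The submitters' processing notes name GRCm38 and mm10. The aligner, the counter, the annotation and the strand setting are not given in the sources used here. Whole reads and gene lengths were recovered from the ratios of the deposited FPKM, and 100% of the 22583 genes seen in at least 2 libraries came out whole (tolerance 0.001 reads). Totals were 14112341 to 33641283 reads. Intervals of the log2 differences come from the standard errors of the fits, which rest on the spread between libraries. The floor of 3 reads covers counting error only.

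Genes with at least 1 FPKM in at least 3 of 6 libraries were tested with limma 3.58.1 in R 4.3.3 on log2(FPKM + 1), group only, two-sided, with a variance trend and Benjamini-Hochberg adjustment over the 10340 genes tested. Low members and the Hdac2 to Hdac1 ratio were compared by exact permutation in scipy 1.17.1. Gene coordinates and start windows came from RefSeq, and transcript lengths, overlaps and 50-base windows from GENCODE M21. The fit was tested on simulated data.

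Named were all members, Hdac11 and, from each partner list, the 2 tested genes with the smallest unadjusted p and the gene with the highest mean. 1 gene this rule names is not reported here. Members and lists were chosen with earlier results of these data known. Libraries of the 2 groups carry matching numbers in the labels, and the numbers were taken as pairs for an alternative fit. For same-numbered libraries the correlations of the deviations from the group means were 0.14, 0.14 and 0.55. Differently numbered libraries gave -0.55 to 0.42, the highest for control 2 with aminophylline 1. These correlations therefore do not settle whether the numbers mark true pairs. Further alternatives were another pseudocount, no filter and a stricter one, TPM, quantile normalization, median centring, no moderation, library weights, voom on recovered reads, and leaving out each library. The gene length alternative, the counts of the lists in every fit and the search for shared windows were added after the data were seen.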

Additional observations from a re-analysis of the deposited data

How the results depend on the processing

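The count of tested deacetylases at an unadjusted p under 0.05 was 0 in the fit as reported and in every alternative except without control library 2, where it was 1 (Hdac2). In that fit 1593 of all 10206 tested genes (15.6%) had an unadjusted p under 0.05. Leaving out 1 library at a time gave counts of 0 to 1 deacetylases. With the replicate block the count was 0, the blocked difference of the Hdac2 to Hdac1 ratio was -0.47, and the block changed no call of a deacetylase. The median difference of the tested deacetylases was -0.28 under a mean of at least 5 FPKM, a filter that only Hdac2 passed, and -0.06 to 0.12 with 1 library left out. The difference of the Hdac2 to Hdac1 ratio was -0.96 to -0.03 with 1 library left out. Hdac3 changed sign under quantile normalization (-0.034), median centring (-0.0089), without control library 2 (-0.12) and without aminophylline library 3 (-0.04), and Hdac1 without control library 1 (-0.16), and the cause was not tested. With 1 library left out Hdac3 ran from -0.12 to 0.33 and Hdac1 from -0.16 to 0.26. Hdac2 and Hdac8 were lower in all of their 17 and 16 fits and Hdac6 higher in all of its 13, with ranges of -0.57 to -0.02, -0.19 to -0.03 and 0.03 to 0.28. These fits share libraries, so their like signs are no separate support. Hdac6 failed the filter without control library 3 or without aminophylline library 2 or 3, so its sign there is not known. With a pseudocount of 0.1 Hdac6 was at 0.28 and Hdac8 at -0.13. The mean level of Hdac8 was 12.2 with the coding transcript length. Genes at an unadjusted p under 0.05 numbered 750 over the whole table, 1467 with the replicate block, 2011 with library weights, 1404 with no filter, and 316 to 1593 with 1 library left out. At 3 libraries a group and 45 to 4521 reads a value, the tested members allow for changes at least of the size of their intervals. On log2(FPKM + 1) these intervals understate the fold changes possible for genes near 1 FPKM.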
